A study of Laccaria bicolor with 20 samples.

Results

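The genes described here were the 200 moderately expressed gene models of the ectomycorrhizal fungus Laccaria bicolor whose mean level stayed closest to that of the control medium when nitrogen, carbon or phosphorus was changed. They were chosen by measured values. Reads per gene model were divided by the library total to give CPM (reads per 1000000 counted reads), and averaged per medium. For each altered medium the log2 ratio of (mean + 1 CPM) to the same quantity in control medium, called L below, was taken. Among the 6318 gene models with a control mean of 20 to 200 CPM, called window genes below, the 200 with the smallest value of the largest absolute L over the 6 altered media were kept, out of 23130 gene models in all. The closeness of the medium means is therefore the choice itself and not a finding.

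Free-living mycelium was grown on cellophane over modified Melin-Norkrans (MMN) agar for 2 weeks in the dark at 25 °C. It was then moved for 1 week to fresh control medium or to a medium changed in ammonium, glucose or phosphate. Control medium held 0.5% glucose, with ammonium and phosphate salts, and all media also held 0.5% malt extract and 1% casein hydrolysate, so that −N and −P lacked added ammonium or phosphate salts but not every source of these elements. In −N all ammonium salts were left out, with KH2PO4 added to restore phosphate, and +N received 25 mM extra ammonium salt. In −C glucose was lowered to 0.02%, and in +C it was raised to 2%. In −P all phosphate salts were left out, with an ammonium chloride salt added to restore ammonium, and +P received 25 mM extra KH2PO4. The changes in KH2PO4 also altered the potassium supply. There were 3 biological replicates per medium, but 2 for +P, giving 20 RNA-seq libraries of 9470656 to 33122623 counted reads. No 2 replicates were the same library: the chi-square per degree of freedom between replicates ran from 1.93 to 27.1, with values above 20 for +C replicate 1 against +C replicates 2 and 3 and for −P replicate 1 against −P replicate 3. All −N libraries, control replicate 1 and −P replicate 3 carry the letter i in their library names, whose meaning the labels do not give.

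A reference gene is a transcript against whose level others are scaled, in quantitative PCR for instance, and it serves only if the treatment leaves its own level unchanged. Such genes have traditionally been taken from housekeeping functions: actin and tubulin build the cytoskeleton, glyceraldehyde-3-phosphate dehydrogenase works in glycolysis, ubiquitin tags proteins for breakdown, and histones package DNA. Glycolytic enzymes are well known in fungi to follow the carbon supply. In RNA-seq data, scaling by the library total or by a trimmed mean of ratios (TMM) takes the place of a reference gene.

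The first of the 200, JGI-439966, had a largest absolute L of 0.0535, in −C. Its levels were 109.8, 100.1 and 106.6 CPM in control medium, 107.9, 94.3 and 112.0 CPM in −N, and 101.7, 105.4 and 106.1 CPM in +N. They were 102.9, 96.3 and 105.6 CPM in −C, 107.3, 105.2 and 96.7 CPM in +C, 117.1, 104.1 and 104.9 CPM in −P, and 115.0 and 97.5 CPM in +P. Replicates of every medium but +N thus lay further apart than the medium means did, and all media overlapped with control.

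JGI-626264, second in the order, was read at 47.4, 50.9 and 42.8 CPM in control medium and at 52.0, 51.5 and 40.8 CPM in −C. Its replicates scattered more than those of JGI-439966, with a pooled replicate coefficient of variation (CV) of 9.57% against 6.44%. JGI-522995, the third, was the tightest of these in control medium, at 102.4, 102.9 and 103.3 CPM, while its +N libraries gave 101.4, 101.3 and 118.1 CPM. A single +N library therefore held its highest value. JGI-692349, the seventh, had a pooled CV of 3.68% and ran from 147.9 CPM in −C replicate 3 to 173.1 CPM in +C replicate 3. The other 6 of the first 10 were JGI-625272, JGI-626139, JGI-301190, JGI-600096, JGI-693131 and JGI-688917, with control means from 31.7 to 118.3 CPM and pooled CVs from 5.61% to 8.95%. No function was assigned to any of the first 10 in the annotation used.

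**Figure D1:**
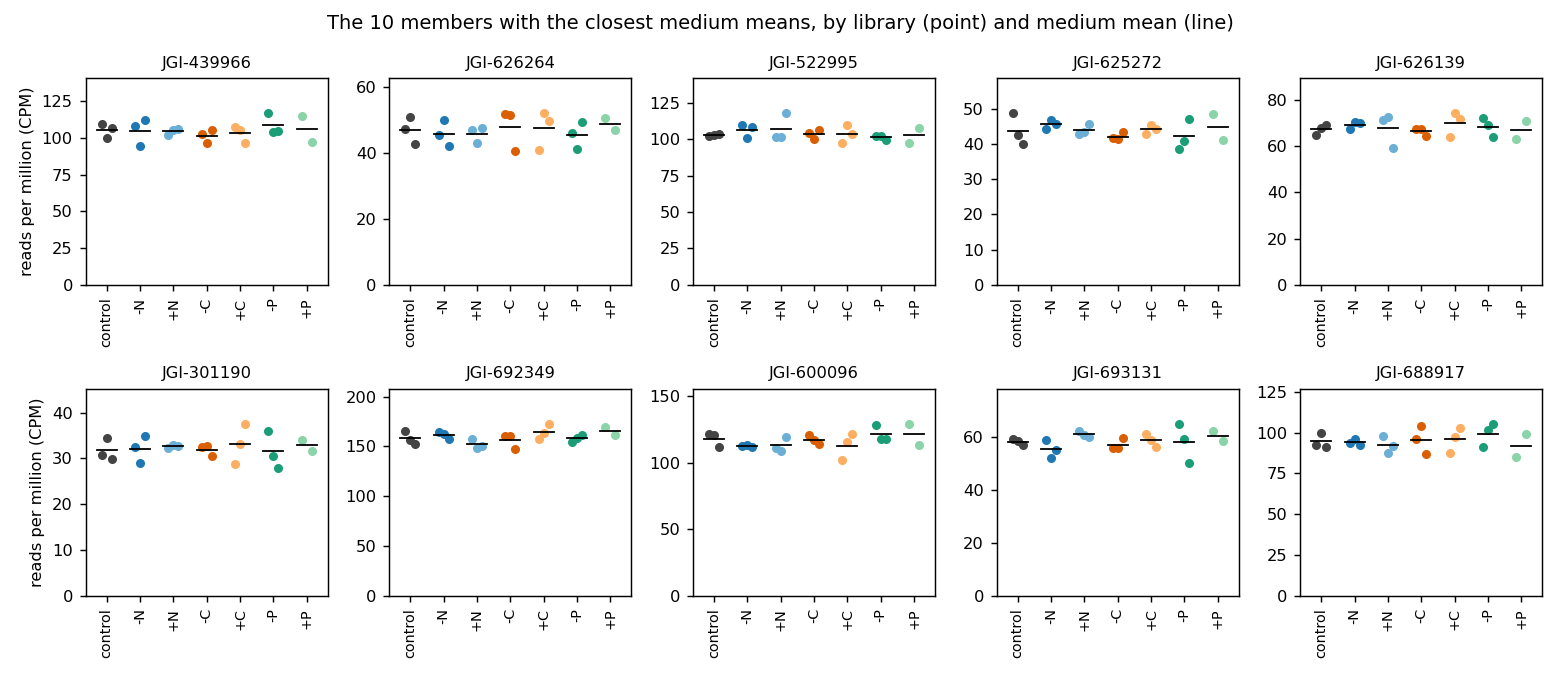
Level in CPM (y axis, from 0) of the 10 genes with the smallest largest absolute L, in each of the 7 media (x axis). Points are libraries and lines are medium means; in 7 of the 10 genes the replicates of 4 or more of the 7 media span a wider range than the medium means do, and JGI-625272, JGI-692349 and JGI-693131 are the exceptions.

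Over all 200 members the largest absolute L ran from 0.0535 to 0.1279, with a median of 0.111, and the limit corresponds to a medium mean 9.27% from control. Among all window genes the median was 28.9%, and 584 window genes had a largest absolute L over 1. Values ran on across the limit without a gap. JGI-488953 (0.1276, in −N), JGI-187907 (0.1278, in +N) and JGI-308833 (0.1279, in −P) lay just inside, and JGI-625024 (0.1281, in +C), JGI-399296 (0.1287, in +N) and JGI-191258 (0.1292, in +P) just outside. The largest deviation fell in −C for 43 members, +N for 40, +C for 36, +P for 34, −P for 26 and −N for 21. In +C 141 members lay above control and 59 below, whereas in −N 74 lay above and 126 below. Only 2 members lay above control in all 6 altered media, and 2 below.

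Members covered the whole window, with control means from 21.4 to 198 CPM and a median of 71.1 CPM, against 53.7 CPM for the other 6118 window genes. Their transcripts, with lengths worked out from paired counts and RPKM values, had a median of 1719 bases and ran from 297 to 7445, against a median of 1514 bases for the others. Each member had at least 185 reads in every library. Together they took 1.59% to 1.69% of the reads.

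**Figure D2:**
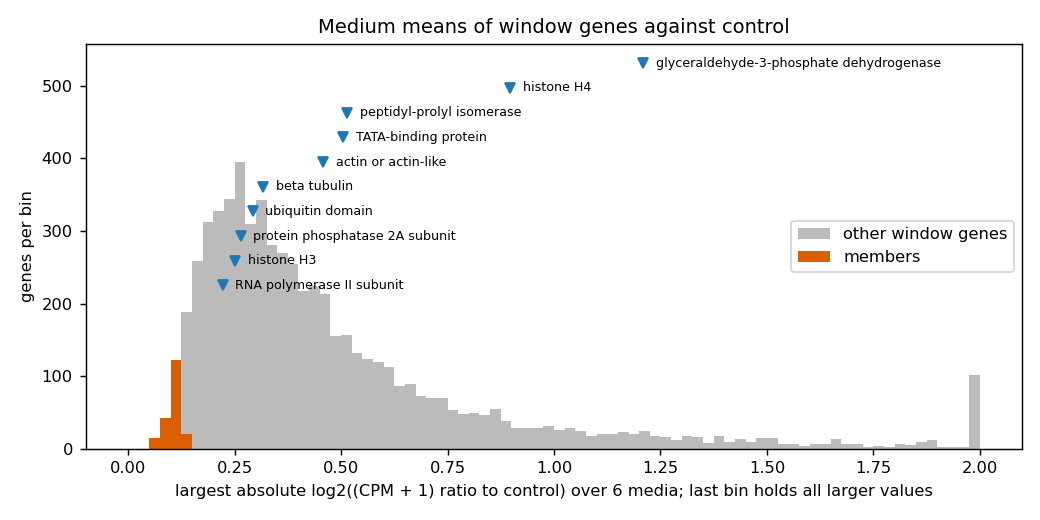
Largest absolute L over the 6 altered media (x axis, log2 scale) against the number of window genes per bin (y axis), with members in orange and other window genes in grey. Triangles mark the most abundant gene model of 10 classical reference families, and their height carries no value. They run from 0.222 for the RNA polymerase II subunit to 1.21 for glyceraldehyde-3-phosphate dehydrogenase. Members hold the smallest values by the rule, so any other window gene lies to their right by construction. The classical models inside the window rank 1255, 1682, 1867, 3996, 4338 and 4391 among the 6318 window genes.

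The rule used medium means only, so the spread between replicates is described next. A gene with wide replicate spread is less likely to have close means, and no test was made. The pooled replicate CV of members had a median of 6.47%, against 7.60% for the other window genes, and 142 of the 200 members lay below the latter value. A CV under 5% was found for 28% of members and 12.6% of other window genes, and a CV above 10% for 9% and 23.8%. The lower spread was seen at each level: the medians were 7.70% against 8.66% at 20 to 50 CPM, 6.49% against 7.02% at 50 to 100 CPM, and 4.95% against 6.17% at 100 to 200 CPM. Counting reads would by itself give members a median CV of 3.03%.

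Close means and tight replicates went together only in part. Of the 200 window genes with the lowest pooled CV 13 were members (6.5%, where members made up 3.17% of window genes), and 2008 other window genes had a lower CV than the median member. Within media, the members' median CV was lowest in −C (4.43%) and −N (4.67%) and highest in +C (6.53%).

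The tightest member, JGI-641620, had a pooled CV of 1.96%, near the 2.24% that counting alone would give. It read 125.4, 127.3 and 129.6 CPM in control medium and 138.6, 136.6 and 141.4 CPM in +C, so that its +C libraries did not overlap with control although the means differed by less than 10%. JGI-671099 (2.58%), JGI-667050 (2.59%), JGI-318997 (2.85%) and JGI-695802 (3.01%) followed. JGI-318997 stayed between 86.1 and 97.5 CPM in the 20 libraries.

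The most variable member was JGI-495363, annotated to mRNA metabolism and a ribonucleoprotein complex, with a pooled CV of 17.7%. Its control libraries gave 44.6, 52.6 and 33.0 CPM and its +C libraries 29.7, 49.9 and 48.1 CPM. Its means were close although its replicates were not, and its transcript was the shortest of all members at 297 bases. JGI-701894 (13.6%), JGI-320156 (13.1%), JGI-489627 (12.9%) and JGI-671008 (11.4%) came next. JGI-320156 is annotated as argininosuccinate lyase, which releases arginine in the last step of its synthesis.

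**Figure D3:**
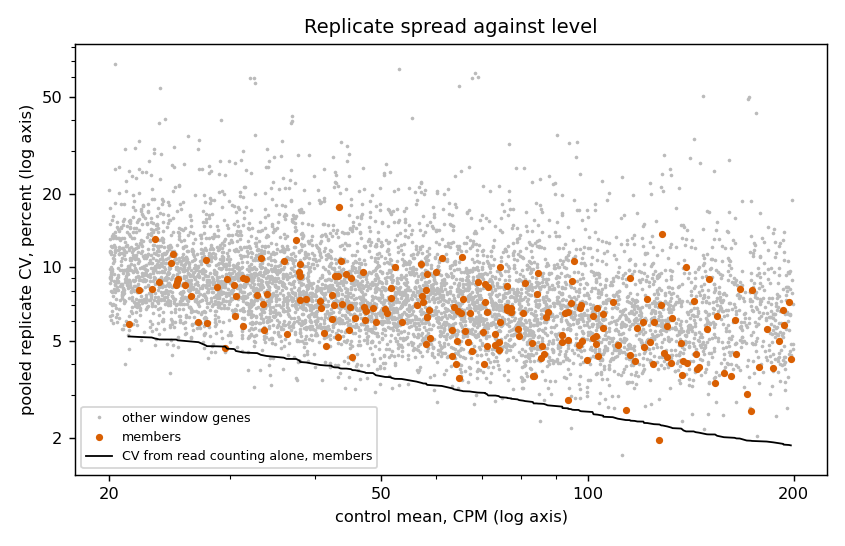
Pooled replicate CV in percent (y axis, log) against control mean in CPM (x axis, log) for members (orange) and other window genes (grey); the line is the running median of the CV that counting reads would give members. Members span 1.96% to 17.7% and overlap with the other genes at every level.

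Annotation of the members was sparse. A RefSeq locus tag of the same number was found for 49 members, and a symbol or functional words for 28, that is 14% of members against 24.8% of other window genes. The remaining 172 had neither. Functional words were available only for genes in the study's lists of regulated, condition-specific or clustered genes. Genes chosen for steady means may stand in such lists less often. These shares therefore describe the lists used, and nothing about the members is read from them.

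Protein synthesis held 4 members, 2% of them, against 1.41% of other window genes. JGI-656696, whose counterpart is a ribosomal protein of the L18a/L20 family, had a control mean of 150.5 CPM and ranged from 132.9 to 182.4 CPM. JGI-638198, a translation GTPase, ranged from 87.8 to 108.7 CPM. JGI-703275, a ribosome constituent, had a control mean of 65.6 ± 12.2 CPM (SD, n = 3). JGI-488025, also a ribosome constituent, ranged from 42.2 to 60.4 CPM.

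In RNA processing, JGI-597880 (mRNA metabolism) had a control mean of 79.0 ± 4.02 CPM (SD, n = 3) and accompanied JGI-495363. The membrane traffic words matched JGI-311731, of intracellular protein transport, and, by the word Golgi only, JGI-551320. The latter is annotated as a nucleotide-sugar transporter of the Golgi membrane, which supplies sugar donors for glycosylation. Control means were 38.0 CPM for JGI-551320 and 63.8 CPM for JGI-311731. A second nucleotide-sugar transporter, JGI-488953, and JGI-189922, of transporter activity, stood in the transporter group. The signalling words matched JGI-604284, an NAD+ kinase, which makes NADP from NAD, and JGI-473577, a phosphatidylinositol 4-phosphate 5-kinase, which makes a membrane signalling lipid. These were among the weaker members, at 30.5 and 28.7 CPM in control medium. JGI-649549 carries the annotation of PalI/Rim9, membrane proteins of the ambient pH signalling pathway in fungi, and ranged from 82.1 to 109.8 CPM. JGI-709549 carries only the words for a small secreted protein and a metabolic process. The words searched for matched no member in 4 groups: proteasome and ubiquitin, DNA replication, repair and cell cycle, mitochondrion and energy, and cytoskeleton. These groups held only 0.801%, 0.507%, 1.31% and 0.131% of the other window genes. The words can miss a member: JGI-485608, annotated to the Cytochrome Oxidase Biogenesis (Oxa1) family and to protein insertion into membrane, fell in none of the named groups. Outside the rule for named genes, and chosen after its values were seen, JGI-295651 bears the symbol LbPDI3, of protein disulfide isomerases, which fold secreted proteins. It stood 13th, with a control mean of 133.1 ± 6.56 CPM (SD, n = 3).

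For 10 of 13 classical reference families searched a gene model was annotated, 37 models in all, and the most abundant model of each was followed. None of the 37 was a member. Members made up only 3.17% of window genes, so nothing is read from this. No model was annotated for alpha tubulin, elongation factor 1-alpha or 14-3-3, and 172 members had no annotation. Apart from RefSeq symbols, annotation came only from the study's lists of regulated, condition-specific or clustered genes. A steady model outside those lists and without a symbol could not be found, so the models followed do not stand for their families. All 10 models followed were called in edgeR's quasi-likelihood test of any difference between the 7 media (Benjamini-Hochberg adjusted p from 1.12e-08 to 0.0211). That test called 65.4% of the 14725 gene models tested, and 80.0% of the other window genes. The lowest count under an alternative run was 9 of the 10. JGI-295504, annotated as glyceraldehyde-3-phosphate dehydrogenase, moved most. It read 1453, 1494 and 1727 CPM in control medium, 634.6, 700.0 and 686.5 CPM in −N, and 772.6, 796.5 and 892.5 CPM in −C. The −N and −C libraries thus lay well below every control library. The log2 fold change was -1.30 ± 0.11 (SE) in −N (edgeR adjusted p = 2.44e-08) and -0.98 ± 0.11 in −C (adjusted p = 4.52e-07). It also fell in +N, +C and +P, but not detectably in −P, where its log2 fold change was -0.03 ± 0.11 (adjusted p = 0.969).

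The histone H4 gene JGI-306722 fell in −C from 337.4 ± 24.9 to 180.8 ± 13.6 CPM (SD, n = 3 each; edgeR adjusted p = 6.27e-05) and rose in +P (adjusted p = 0.015). The beta-tubulin gene LbTUBb1 (JGI-294746) fell in −C by 0.37 and in −N by 0.32 on the log2 scale and rose in +N (edgeR adjusted p = 0.0024, 0.0103 and 0.0428). Its replicates were tight, with a pooled CV of 3.95%. The peptidyl-prolyl isomerase JGI-678827, of a family of folding enzymes, rose in +N (log2 fold change 0.54 ± 0.07, edgeR adjusted p = 1.83e-06). The actin or actin-like JGI-305360 fell there (-0.44 ± 0.08, edgeR adjusted p = 0.00012). It bears the symbol ARP16201 and was the only model annotated to its family. Whether it is a conventional actin was not tested. JGI-475851, the TATA-binding protein of basal transcription, fell in −C (edgeR adjusted p = 0.00105). The RNA polymerase II subunit JGI-669088 had the smallest largest absolute L of the 10, 0.222 in +N. It read 171.0 ± 7.55 CPM in control medium, 154.3 ± 1.51 CPM in −N and 146.5 ± 4.29 CPM in +N (SD, n = 3 each). Both falls were called (edgeR adjusted p = 0.0205 in −N and 0.043 in +N), the latter near the threshold. After TMM scaling its log2 fold change of -0.24 in −N was larger in size than any of the ubiquitin-domain gene JGI-634364 (up to 0.21, in +C). The histone H3 gene JGI-191988 and the protein phosphatase 2A subunit JGI-683769 fell in −N and −C (edgeR adjusted p from 0.016 to 0.0176). The ubiquitin-domain gene JGI-634364 passed in no single medium (lowest edgeR adjusted p = 0.146, in +C), but it rose in +C with members as reference (adjusted p = 0.0419).

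Of the 20 calls of these genes against control, none changed direction under another scaling, with DESeq2 or without any 1 library, and 8 kept their side of the threshold under each of these. The 8 were those of JGI-295504 in −N, +N and −C, of JGI-305360 and JGI-678827 in +N, and of LbTUBb1, JGI-475851 and JGI-306722 in −C. With members as reference the calls of the histone H3 gene in −N and −C were lost (edgeR adjusted p = 0.142 and 0.0636), as were those of JGI-678827 and JGI-669088 in −N (adjusted p = 0.0671 and 0.0908). The +P calls rest on 2 libraries: that of histone H4 was lost without either of them, and that of JGI-295504 without +P replicate 2 (adjusted p = 0.0934).

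How closely the media could be told apart for a member was read from 95% intervals of the difference, with TMM scaling. All 200 members, as the choice favours, had their 6 intervals within 1.5-fold of control, as did 48.6% of the other window genes. The precision was nevertheless coarser than the choice: the median half-width of the intervals was 0.181 on the log2 scale, and in all 200 members it exceeded 0.128, the limit of the rule. Of 1200 member intervals 1162 held 0. A change of 10% in a member could mostly not be told from none at this depth and number of replicates. The order within the list is finer than the data resolve.

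**Figure D4:**
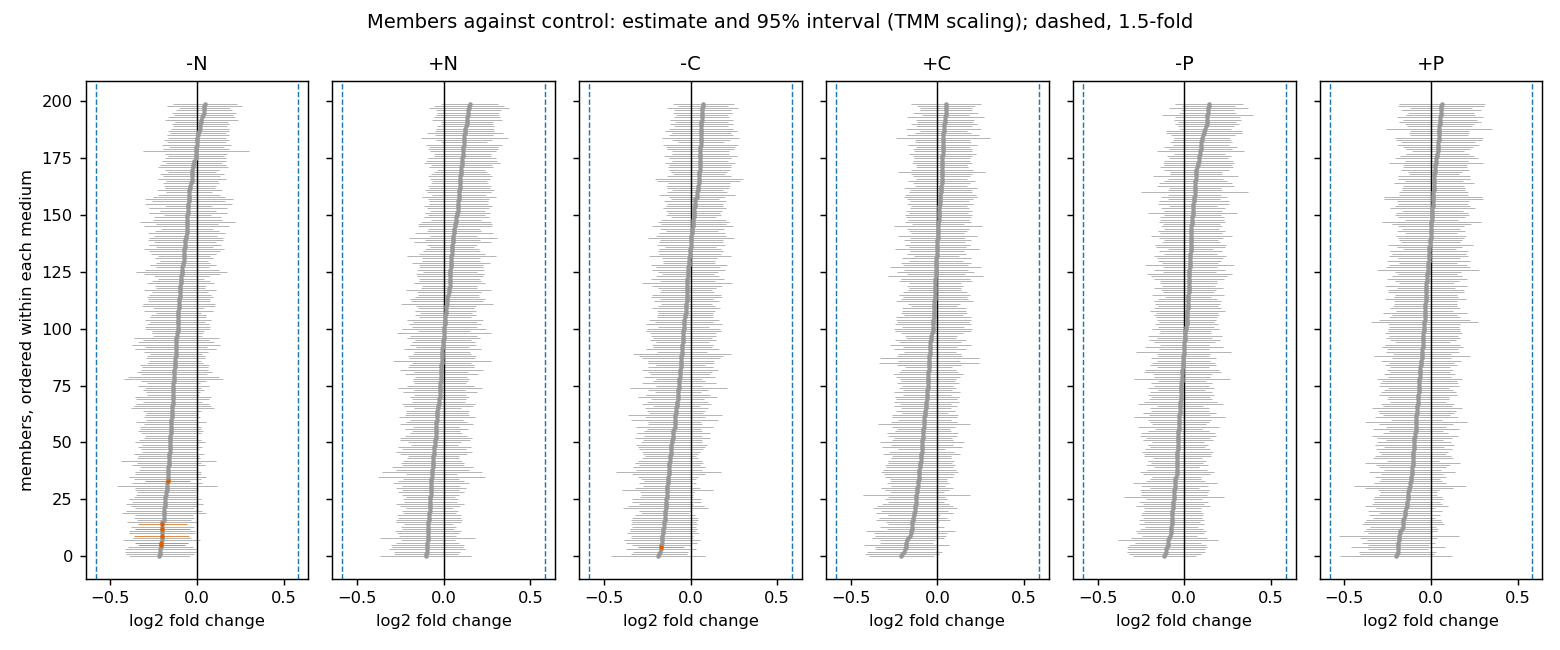
Log2 fold change against control (x axis) of each member, ordered within each of the 6 altered media (y axis), with 95% intervals from edgeR after TMM scaling. Orange marks the calls, 6 in −N and 1 in −C; dashed lines mark 1.5-fold, which no interval reaches.

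The calls against control use the contrasts that chose the members and are given as a description. In −N 6 members were called, all lower, where 31.7% of all gene models tested were called. In −C 1 member was called, where 37.6% were. Every −N library bears the letter i, and fitting that letter as well lowered the share of all gene models called in −N to 19.6%. No member was called in +N (background 29.8%), +C (9.05%), −P (0.0951%) or +P (9.83%), with 0, 7, 0 and 4 members at an unadjusted edgeR p under 0.05. DESeq2 also called none in these 4 media. Among all gene models, the 14 calls in −P became 113 with DESeq2, 63 without a filter and 613 without −P replicate 1. They went to 0 without any 1 of the control, −C, −N or +N libraries. The same held without −P replicate 2 and without +C replicate 2 or 3. The 1447 calls in +P fell to 702 without +P replicate 1. In the test over the 7 media 12 members were called (background 65.4%). The 6 of −N were JGI-189922, JGI-671099, JGI-632997, JGI-638198, JGI-324588 and JGI-686224, with log2 fold changes from -0.21 to -0.17. JGI-324588 had the lowest edgeR adjusted p (0.0196): it read 73.9, 76.8 and 69.4 CPM in control medium and 65.4, 68.9 and 68.0 CPM in −N. Its −N libraries all lay under its control libraries. JGI-189922 was also the member called in −C. Without −N replicate 1 only 1 member was called in −N, and without −N replicate 3 only 2. Without +C replicate 1 there were 5 calls in +C, and 27 in the test over the 7 media.

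These calls depended on the scaling. After TMM scaling 184 of the 200 members lay below control in −N, with a median log2 fold change of -0.11, while the median over all gene models tested was 0.02. With total count scaling, or with the members as reference, no member was called in −N or in −C. Which scaling holds the true level cannot be told apart here, since the members were chosen on totals.

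Used as a reference set, the members gave library size factors close to the library totals, which the choice on CPM fixes for the mean of each medium and which is therefore no property to read from them. Factors lay within 2% of the total in 16 of 20 libraries, and ran from -2.21% in −N replicate 3 to 4.17% in +C replicate 2. +C replicate 3 stood at 4.02%, whereas +C replicate 1 was at -1.97%, the same split of +C as over all genes. TMM factors departed further from the total, from -8.75% in +N replicate 2 to 7.59% in +C replicate 2. The spread within media was 1.76% (SD) for member factors and 4.10% for TMM factors. In −N all 3 libraries had member factors 4.60% to 5.26% below the TMM factors.

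**Figure D5:**
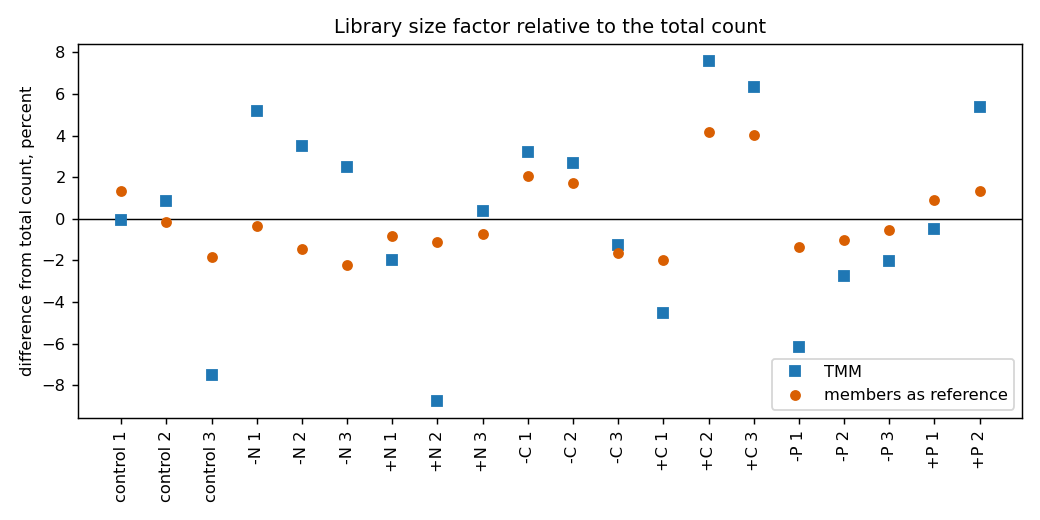
Library size factor relative to the total count in percent (y axis) for each of the 20 libraries (x axis, by medium and replicate), from the members (orange circles) and from TMM (blue squares). Member factors stay between -2.21% and 4.17%; TMM factors are above the total in all −N libraries, where member factors are below it.

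A change of scaling shifts all genes of a library alike, and TMM centres them, so the balance of calls moves with it by construction. With members as reference, the median log2 fold change of all gene models tested in −N rose to 0.13, and 64.3% of the calls were higher in −N, against 46.5% after TMM scaling. Total count scaling, on which the members were chosen, gave 61.2% in −N, 68.7% in +C and 63.3% in +P. In +C the share of higher calls went from 47.4% to 60%, and in +P from 43.1% to 57.1%. In −C it went from 48.3% to 54.9%, and in +N from 47.2% to 44.4%. In −P 14 gene models were called after TMM scaling and none with members as reference by edgeR, with 1480 and 1636 at an unadjusted p under 0.05. Replicate spread separated the scalings little: the median pooled CV of the other window genes was 7.50% with members as reference, 7.60% with totals and 8.07% with TMM. Over all gene models tested other than members, totals and TMM changed order: 11.73% with members as reference, 11.96% with totals and 11.77% with TMM. Upper quartile scaling gave the lowest value there, 11.63%.

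The list itself was only partly stable. Leaving out 1 library at a time, 115 to 190 of the 200 members were chosen again. The lowest count came without control replicate 3, followed by 117 without control replicate 2. Only 22 members were chosen in each of these 20 lists, among them 6 of the first 10: JGI-439966, JGI-522995, JGI-626139, JGI-692349, JGI-600096 and JGI-693131. JGI-695802, JGI-318997 and JGI-667050, 3 of the 5 tightest members, were also among the 22. After TMM scaling 66 of the 200 were chosen again, and with DESeq2 size factors 60.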

How the data were processed

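RNA was sequenced from 20 mycelium libraries in 7 media. Per the study's methods, the authors trimmed the reads and aligned them to the JGI L. bicolor transcripts in CLC Genomics Workbench. The deposited files hold raw read counts per gene model, and RPKM values that the authors computed from them. Reads with several hits were kept up to a limit, and whether the counts are unique or total mapped reads, or use strand, is not stated, so that near-identical copies, overlapping genes and antisense genes are uncertain. RPKM served only to derive transcript lengths. Every row named a gene model.

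CPM used the column total. Tests used edgeR 4.0.16 (R 4.3.3) with TMM scaling, quasi-likelihood F tests over all libraries with medium as the factor, and Benjamini-Hochberg adjustment over 14725 gene models that passed the filter on low counts, at a threshold of 0.05. All 200 members passed it. DESeq2 1.42.0 was an alternative. The fit was tested on simulated data. The pooled CV is the root mean square of the CVs within media, weighted by degrees of freedom. Depth was 9470656 to 33122623 reads. Symbols came from RefSeq (assembly V1.0), matched by locus tag. Functional words came from the study's lists of regulated, condition-specific or clustered genes.

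The text names the 10 members with the smallest largest absolute L, 3 on each side of the limit, the 5 with the lowest and the 5 with the highest CV, up to 3 per annotation group, and the most abundant gene model of each classical family. JGI-488025, beyond the limit of 3 in its group, LbPDI3 and JGI-485608 were added after seeing values. The members and lists were chosen with earlier results of these data known. Sequences and gene coordinates were not used here.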

Additional observations from a re-analysis of the deposited data

How the results depend on the processing

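Medians of replicate CV and counts of intervals within 1.5-fold and 2-fold kept within their limits under each alternative run. Members chosen again numbered 66 with TMM, 60 with DESeq2 size factors, 108 with the upper quartile and 117 with medium medians. Members called in −N (6) became 0 with upper quartile, total count or member scaling and without a filter, and 2 with a term for the letter i. Members called in −C (1) became 2 with the upper quartile, 0 with total count or member scaling, no filter or the letter term, 5 with at least 10 reads in each library, 9 with only the compared groups and 3 with DESeq2. Members called over the 7 media (12) became 3 with member scaling, 7 without a filter, 22 with at least 10 reads, 5 with the letter term and 28 with DESeq2. The ratio of the largest to the smallest member factor, 6.53% above 1, was 9.68% with the first 10 members. The causes were not tested.

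Replicate numbers did not pair the samples: deviations of same-numbered libraries correlated from -0.378 to 0.301 over 45 pairs. With a replicate block, members called were 3 in −N and 6 over the 7 media, and no call of a classical reference gene changed.

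Leaving out 1 library at a time gave 115 to 190 members chosen again, 1 to 9 members called in −N, 0 to 3 in −C, 0 to 5 in +C, 0 to 0 in +N, −P and +P, and 3 to 27 over the 7 media. Members called in −N fell to 3 without control replicate 1, −C replicate 2 or 3, +C replicate 3 or +N replicate 1. In −C the call was lost without −C replicate 2 or 3 or +C replicate 2, and 2 and 3 members were called without control replicates 2 and 3. Over the 7 media 21 were called without control replicate 3, 7 without −C replicate 1 or 2 or −P replicate 2, 5 without −N replicate 1 or +N replicate 1, and 3 without −N replicate 3. It gave 194 to 200 members within 1.5-fold, 200 to 200 within 2-fold, a median member CV of 5.99% to 6.63%, and factor ratios of 6.26% to 6.53%.

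Alternatives for the classical reference genes were chosen after seeing the data. With 2 or 3 libraries per medium, differences under about 0.18 on the log2 scale were mostly not detectable.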
